A study of Rattus with 9 samples.

Results

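The cells described here are epithelial cells of the rat extrahepatic bile duct in which neither Scgb1c1, a secretoglobin, nor Ttr, transthyretin, gave a transcript. They were chosen with a gate on unique molecular identifiers (UMIs, each 1 captured transcript). Of 161207 barcodes with more than 400 genes, 150379 stayed below 6000 genes and below limits of 25% of UMIs from mitochondrial genes and 3% from hemoglobin genes, and 19107 of these (12.7%) passed the gate. The gate asked for at least 3 of the epithelial genes Epcam, Krt7, Krt8, Krt18 and Krt19. It asked for 0 UMIs of Ptprc, a pan-leukocyte gene, of Dcn, a fibroblast gene, and of Scgb1c1 and Ttr. Cells with at least 2% insulin UMIs, at least 1% of somatostatin, ghrelin and glucagon UMIs, 2 or more of the tuft genes Trpm5, Pou2f3, Avil and Dclk1, or 2 or more of the goblet genes Clca1, Zg16, Spink4 and Retnlb were left out.

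The series holds 9 samples, read as 20 single-cell RNA libraries with the 10x Genomics 3' chemistry. Of these, 3 are sham-operated rats with a library each. Liver transplantation (LT) is represented by a sample from day 1, day 3 and day 7, and each of them pools 3 libraries. The LT_flow arm has samples from the same days, made of 3, 2 and 3 libraries, from recipients in which tying off the arteries to the spleen and to the stomach and duodenum raised the arterial flow to the liver. The labels call these arms ctrl and treat, and they were read as LT and LT_flow from the design text of the series, which names a control and a treatment. The study used Sprague-Dawley rats of both sexes, a few weeks old, and both arms carried an ischemic graft injury. No genetic change or drug is given for any group. The tissue is the extrahepatic bile duct, and the gate, not a sort, defines the epithelium. Since each day of an arm is 1 sample, and the labels do not say whether its libraries came from separate rats, p-values measure the spread between these samples only, which may be technical.

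The biliary epithelium lines the bile ducts, adds bicarbonate and water to bile through channels and exchangers such as Cftr, and keeps bile acids away from the duct wall with tight junctions and a mucous coat. Its cells carry MHC class I and, when stimulated by interferon gamma, can also carry MHC class II, which presents peptides to CD4 T cells. The extrahepatic duct takes its oxygen mainly from branches of the hepatic artery, and after an injury the surviving epithelial cells divide to cover the wall.

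The sham samples held 403, 1158 and 1142 of the cells. LT held 4131, 674 and 2536 on days 1, 3 and 7, and LT_flow held 2777, 2413 and 3873. LT day 3 rested mostly on 1 library, which gave 91.2% of its cells. The median number of UMIs per cell was 3134, 2927 and 3220.5 in sham, 7382, 6022.5 and 4241.5 in LT, and 4064, 3749 and 3322 in LT_flow. Every graft was thus deeper than every sham sample (exact permutation test over 6 against 3 samples, two-sided, p = 0.0238, the smallest this design allows). Libraries held 14398295 to 109245177 UMIs over all barcodes, and among the cells described here no pair of libraries shared more than 2 barcodes. Free RNA, estimated from the profile of barcodes with at most 100 UMIs, made up 11.6% of the UMIs in sham 1 and 1.54% to 7.58% in the other libraries.

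**Figure D1:**
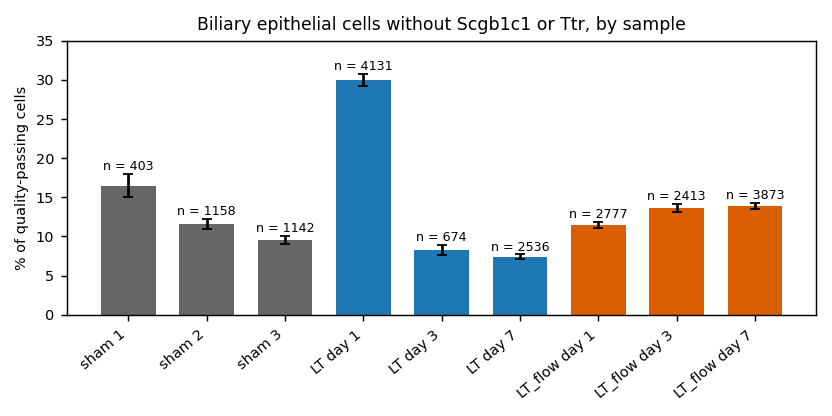
Biliary epithelial cells without Scgb1c1 or Ttr as a percent of the quality-passing cells of each sample (bars start at 0), with the number of cells above each bar. Lines are Wilson 95% intervals, which cover counting error only, and LT day 1 stands at 30.0%, above the other 8 samples.

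Among quality-passing cells their share was 16.4%, 11.6% and 9.53% in sham. It was 30.0%, 8.27% and 7.42% in LT on days 1, 3 and 7, and 11.4%, 13.6% and 13.9% in LT_flow. The groups overlapped. LT day 1 lay far above the sham range, and LT days 3 and 7 lay a little below it. Libraries of LT day 1 differed, with 1126 of 6884, 1067 of 3178 and 1938 of 3729 quality-passing cells. The first of these was close to sham 1, with 403 of 2456. On day 7 of LT the lowest library had 120 of 7350. The mean share was 14.1% ± 8.21 (SD, n = 6) in grafts and 12.5% ± 3.53 (SD, n = 3) in sham, a difference of 1.59 percentage points that was well within the spread (exact permutation test, two-sided, p = 1). Without LT day 1 the difference turned to -1.58 percentage points. In dissociated tissue a larger share of a cell type and a loss of other cells cannot be told apart.

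The condition on Scgb1c1 and Ttr split the biliary cells of the sham samples and the grafts unevenly, and this is given as a description because the rule set it. Of cells that passed the rest of the gate, 22266 in all, the share with neither gene was 79.8%, 72.4% and 69.6% in sham. It was 93.0%, 95.6% and 91.1% in LT and 85.6%, 82.1% and 87.8% in LT_flow. After each cell was thinned to 2000 UMIs, which leaves out the 34.2% to 38.2% of the cells of sham samples and 17.1% to 29.9% of those of grafts that were shallower, it was 82.9%, 76.0% and 76.7% in sham, 97.5%, 97.7% and 95.6% in LT, and 92.5%, 90.9% and 92.3% in LT_flow. Just outside the rule lay 1227 cells that missed it by a lone UMI of either gene. Just inside lay 3564 cells with exactly 3 of the 5 epithelial genes, against 2522 with 2 that were left out, and 2602 cells with 1 tuft gene.

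The cells carried the genes named for them, though not evenly. Krt7 and Krt8 were gate genes. Of the other 4, and again at 2000 UMIs per cell, Tff3, a trefoil peptide of mucous surfaces, was found in 34.0% to 73.4% of the cells in sham and 43.0% to 76.1% in grafts, against 0% to 11.5% of Ptprc-positive cells, the background from free RNA. Mmp7, a secreted metalloproteinase of epithelia, was found in 24.2% to 50.1% in sham and 35.2% to 85.6% in grafts, against at most 2.79% of Ptprc-positive cells. Agr2, a chaperone for mucins, was found in 21.5% to 42.0% in sham and 25.3% to 45.4% in grafts, against 0.2% to 5.13% of Ptprc-positive cells. Gkn3, a gastrokine, was found in no more than 3.82% of the cells of any sham sample and 3.52% to 17.4% in grafts, so that it marked a minority. In sham 1, 50.6% of the cells had none of the 4 genes, against 6.79% to 16.3% elsewhere, so that this sample, with the fewest cells and the most free RNA, stood apart.

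None of these 4 genes passed the test between grafts and sham. Levels are given as CPM, the UMIs of a gene summed over the cells of a sample per 1000000 UMIs, with TMM scaling between samples. Summed levels of lists, and levels of single libraries, are scaled by library size alone. Mmp7 came nearest, at 427, 684 and 642 CPM in sham, 834, 1436 and 2192 in LT and 1306, 1491 and 2156 in LT_flow. The groups did not overlap, and the log2 fold change was 1.43 (adjusted p = 0.0516 by edgeR's quasi-likelihood test with Benjamini-Hochberg adjustment). Gkn3 stood at 26.6, 66.7 and 71.3 CPM in sham, 160, 214 and 127 in LT and 153, 904 and 226 in LT_flow, with LT_flow day 3 far above the rest (log2 fold change 2.43, adjusted p = 0.134 by edgeR).

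The first comparison asked how the cells of grafts differed from those of sham-operated rats, over all days and both arms (6 against 3 samples). Of 12941 genes tested, 234 (1.81%) passed an adjusted p of 0.05 in edgeR's quasi-likelihood test, 70 higher in grafts (0.541%) and 164 lower (1.27%). Scaled by library size alone, which moved the median of all genes by -0.20 on the log2 scale, 50 were higher and 248 lower. Ass1, complement C3, Lcn2 and Slpi were higher in every graft than in any sham sample, while genes of pancreatic acinar cells, high in sham 2 and sham 3, led the lower side. Such genes were named for their change in these same samples, so that a gap between the groups adds no support. Grafts were deeper than sham, and at 2000 UMIs per cell 45 genes passed, 42 of them among the 234. Without sham 1 169 genes passed, without sham 2 54 and without sham 3 91. With a stricter gate chosen after the data were seen, with no tuft gene UMI and under 0.1% acinar UMIs, 94 passed. Of these 42 were higher and 52 lower.

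Ass1, argininosuccinate synthase, which makes the precursor of arginine, had the largest rise among called genes with at least 50 CPM and under 50% free RNA. It stood at 12.2, 11.1 and 16.2 CPM in sham, at 94.0, 304 and 311 in LT on days 1, 3 and 7, and at 64.6, 214 and 281 in LT_flow. All grafts lay above all sham samples, and in both arms day 1 was the lowest (log2 fold change 4.0 ± 0.59 SE, adjusted p = 0.00899 by edgeR). Between day 1 and day 7 it rose further, by a log2 fold change of 1.92 (adjusted p = 0.00553). Complement C3 stood at 43.9, 67.6 and 109 CPM in sham, 247, 600 and 556 in LT and 355, 756 and 1034 in LT_flow. Its groups did not overlap either (log2 fold change 3.00, adjusted p = 0.0155 by edgeR). At 2000 UMIs per cell, C3 was found in 7.17% to 15.1% of the cells in sham and 18.0% to 65.3% in grafts, against 4.4% to 13.1% of Ptprc-positive cells. In sham 1 it was no more frequent than in Ptprc-positive cells (9.16%), and whether its share there is background was not tested.

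Of the 24 genes of mucus and mucosal defense tested, 3 rose and 1 fell, beside 0.541% and 1.27% over all genes. The median log2 fold change was 1.34, beside 0.00 over all genes. Lcn2, lipocalin 2, which binds bacterial iron carriers, stood at 114, 323 and 437 CPM in sham, 1552, 1993 and 939 in LT and 1873, 2368 and 1472 in LT_flow (log2 fold change 2.54, adjusted p = 0.0171 by edgeR). Slpi, an inhibitor of leukocyte proteases, stood at 46.0, 54.1 and 38.4 CPM in sham, 405, 408 and 442 in LT and 178, 226 and 137 in LT_flow (log2 fold change 2.70, adjusted p = 0.0113). LT lay above LT_flow on each day, a difference that did not pass (adjusted p = 0.265), and an estimated 43.6% of the Slpi UMIs in grafts was free RNA. The third, Wfdc18, was at 0, 0 and 0.151 CPM in sham, which is 1 UMI, and at 0.806 to 8.61 CPM in grafts (adjusted p = 0.0343), and it passed in 8 of 19 alternatives. The gene that fell was Spink1, described with the acinar genes.

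Further genes that rose belonged to several functions. Sod2, the mitochondrial superoxide dismutase, stood at 113, 170 and 152 CPM in sham and between 286 and 543 in grafts (log2 fold change 1.51, adjusted p = 0.0149 by edgeR). Fam3d, a cytokine-like secreted protein of the gut, stood at 84.8, 143 and 147 CPM in sham and between 331 and 671 in grafts (log2 fold change 2.01, adjusted p = 0.00742). Col18a1, the basement membrane collagen that yields endostatin, rose from 25.5 to 34.2 CPM to 58.5 to 81.7 CPM (log2 fold change 1.35, adjusted p = 0.0034). None of the ranges overlapped, in genes chosen for their change between these same samples. Gmds, which makes GDP-fucose precursors, and Ptprz1, a receptor tyrosine phosphatase, had log2 fold changes of 1.08 and 1.06 (adjusted p = 0.00395 and 0.023 by edgeR). Of 25 genes of the unfolded protein response, Sdf2l1, a partner of endoplasmic reticulum chaperones, and Asns, asparagine synthetase, rose (log2 fold changes 2.49 and 1.04, adjusted p = 0.0365 and 0.0235), and none fell. They passed in 10 and 14 of 21 alternatives. The shares over all genes were 0.541% higher and 1.27% lower.

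**Figure D2:**
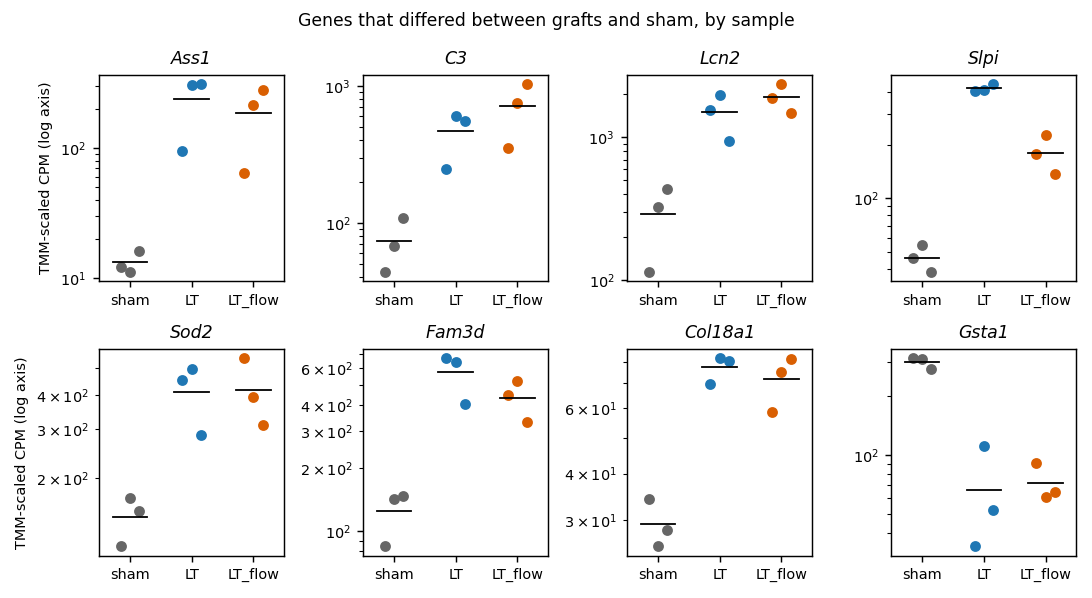
Levels of 8 genes in the 3 sham, 3 LT and 3 LT_flow samples, in TMM-scaled CPM on log axes. Points are samples, in LT and LT_flow ordered as days 1, 3 and 7, and lines are means. The genes were chosen from those called between grafts and sham. All grafts lie above all sham samples for the first 7 genes and below them for Gsta1.

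Genes that fell included Gsta1, a glutathione S-transferase, at 313, 310 and 274 CPM in sham against 34.1 to 111 in grafts. No graft reached the sham range (log2 fold change -2.12, adjusted p = 0.00614 by edgeR). Among the 23 NRF2 antioxidant genes, Gsta1 fell, the cystine transporter Slc7a11 rose (0.654 to 2.95 CPM in sham, 3.83 to 7.43 in grafts, adjusted p = 0.049, past the threshold in 7 of 20 alternatives), and no other passed. The shares over all genes were 1.27% lower and 0.541% higher. Vil1, villin of the microvillus core, fell from 19.8 to 37.0 CPM to 9.43 to 14.3 CPM (log2 fold change -1.30, adjusted p = 0.00863). The peptide hormone gene Gast and Guca2a, which encodes guanylin, fell as well (log2 fold changes -2.03 and -2.40, adjusted p = 0.0247 for both). Gast was scarce in grafts, at no more than 5.51 CPM (LT_flow day 3).

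The largest falls were in genes of pancreatic acinar type, digestive enzymes and their inhibitors (Spink1, Prss3b, Spink1l, Pnlip, Sycn, Cpa1, Cel and Ctrc, with the unnamed LOC103689940 among them). Spink1, a trypsin inhibitor, stood at 0, 62.5 and 561 CPM in sham, and no graft exceeded 1.26 CPM (adjusted p = 0.0246 by edgeR, past the threshold in 10 of 20 alternatives). Cpa1, carboxypeptidase A1, stood at 3.80, 119 and 535 CPM in sham and at most 7.43 in grafts (adjusted p = 0.0479, past the threshold in 7 of 21 alternatives). Both were thus high in sham 2 and sham 3 only. Of 11 acinar genes tested 4 passed, all lower in grafts, beside 1.27% lower over all genes. The summed level of the 11 was 134, 2627 and 9078 CPM in sham and 110 to 229 CPM in grafts. At 2000 UMIs per cell, Spink1 was found in 1.68% and 2.05% of the cells of sham 2 and sham 3. Acinar UMIs as a whole were spread over more cells. A tuft gene was found in 240 of 1158 cells of sham 2 and 234 of 1142 of sham 3. The stricter gate kept only 550 and 454, so that most cells it removed held at least 0.1% acinar UMIs. With it Gsta1, Ass1, C3, Lcn2, Slpi, Fam3d, Sod2, Col18a1 and Gmds still passed, whereas Sdf2l1 (adjusted p = 0.0895), Ptprz1 (adjusted p = 0.101), Slc7a11 (adjusted p = 0.0981) and Wfdc18 (adjusted p = 0.215) did not. Spink1l, Sycn, Cpa1, Cel and LOC103689940 did not pass with it (adjusted p = 0.0521 to 0.12), and Spink1 was not tested with it.

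In several lists no gene passed, beside 0.541% of all genes higher and 1.27% lower. All 36 interferon-stimulated genes had positive log2 fold changes (median 1.07), as had all 22 of MHC class I (median 1.35) and 42 of 43 of the cell cycle (median 0.83), and none passed. The summed cell cycle level overlapped between grafts (1543 to 4113 CPM) and sham (1682 to 2047 CPM). The MHC class II genes had a median of 3.72 and none of 10 passed. Of 24 genes of hypoxia and glycolysis 22 were positive (median 1.12) and none passed. Of 20 mesenchymal genes, Srgn, a proteoglycan of secretory granules, and Cxcr4, a chemokine receptor, rose (log2 fold changes 1.74 and 1.76, adjusted p = 0.00574 and 0.0247 by edgeR). Both are abundant in leukocytes, and free RNA was estimated at 12.1% to 104% and 14.5% to 44.5% of their UMIs by sample. After its subtraction the log2 fold change of Srgn was 0.62 and did not pass (adjusted p = 0.698), and Cxcr4 passed in 16 of 21 alternatives. Vim, vimentin, stood at 179, 123 and 93.0 CPM in sham and 92.0 to 194 in grafts, and Crem, which encodes cAMP-responsive activator and repressor isoforms that these counts do not separate, at 24.5, 32.9 and 33.1 against 18.8 to 43.3. The ranges overlapped for both (log2 fold changes 0.03 and 0.02, adjusted p = 0.967 and 0.98).

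Leukocyte transcripts moved with these results, in which 0.541% of all genes were higher and 1.27% lower. The summed level of 8 neutrophil genes was 5.14 to 67.1 CPM in sham and 136 to 768 CPM in grafts, and 1 of 6 tested, S100a9, passed, with 77.4% of its UMIs in grafts estimated as free RNA. G0s2 also rose (adjusted p = 0.0115 by edgeR), with an estimate of 97.7%. Of 15 other immune genes tested none passed, and their summed level was 123 to 628 CPM in sham, the highest in sham 1, and 211 to 878 in grafts. After subtraction of the free RNA profile 194 genes passed.

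Comparing day 7 with day 1 asked how the cells of both arms changed within the first week (2 against 2 samples, with the arm as a block). Of 13345 genes tested, 1525 (11.4%) passed, 746 higher on day 7 (5.59%) and 779 lower (5.84%). Scaled by library size alone 1042 were higher and 332 lower. MHC class II, MHC class I and interferon-stimulated genes rose, and genes of the cell cycle, 4 glycolytic genes and the lectins Reg3b and Reg3g fell. Most calls were lost when any of the 4 samples was left out. Without LT day 1 no gene passed in edgeR (2811 genes at an unadjusted p under 0.05), without LT day 7 or LT_flow day 1 17 did, and without LT_flow day 7 209 did. Without LT day 1 the median log2 fold change of the MHC class II genes was 6.51, of the cell cycle genes -1.28 and of the hypoxia and glycolysis genes -0.31. Without sham 1, 2 or 3, which inform only the spread, 3221, 582 and 937 genes passed. At 2000 UMIs per cell 673 did.

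Of 10 MHC class II genes tested 8 rose and none fell, beside 5.59% and 5.84% over all genes. Their median log2 fold change was 6.49, beside 0.04 over all genes. Cd74, the invariant chain that guides class II molecules, stood at 99.1, 110 and 75.4 CPM in sham. In LT it stood at 38.2 CPM on day 1, 1228 on day 3 and 5276 on day 7, and in LT_flow at 25.7, 3124 and 3380. Days 3 and 7 lay far above sham in both arms. Day 1 had lower values than sham, but free RNA was estimated at 4.17% to 96.6% of the Cd74 UMIs by sample, the most in sham 1, and day 1 was not tested against sham (day 7 minus day 1, log2 fold change 7.07 ± 0.60 SE, adjusted p = 0.00408 by edgeR). At 2000 UMIs per cell, Cd74 was found in 8.24% to 8.68% of the cells in sham, 3.71% and 3.27% on day 1, and 89.9% and 90.2% on day 7. In barcodes with at most 100 UMIs, Cd74 stood at 4242 and 5504 CPM on day 7, so that free RNA can add to these shares, and by how much was not tested.

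The class II chains followed the same course. RT1-Ba, an alpha chain, stood at 15 to 25.7 CPM in sham, 6.39 and 6.55 on day 1, 304 and 563 on day 3, and 1176 and 706 on day 7 (LT and LT_flow, log2 fold change 7.18, adjusted p = 0.00243 by edgeR). RT1-Bb, RT1-Da and RT1-Db1, the further chains of the classical molecules, had log2 fold changes of 6.86, 6.58 and 6.41. Ciita, the coactivator that switches class II genes on, was at no more than 0.453 CPM in sham, 0.0723 and 0.275 CPM on day 1, and 22.2 and 15.4 on day 7 (adjusted p = 0.00408), with 3 and 6 UMIs on day 1. On day 7 free RNA was estimated at 6.67% of the Cd74 UMIs and 20.7% of those of RT1-Da. After subtraction of free RNA 9 of 10 class II genes passed.

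Libraries differed within LT day 7. Cd74 stood at 5323 and 5971 CPM by library size in the larger libraries, with 1156 and 1260 cells, and at 128 in the library with 120 cells. The 3 libraries of LT_flow day 7 stood at 4200, 2114 and 4770 CPM, and those of day 1 between 4.02 and 74.3 CPM in LT and 21.3 and 32.3 in LT_flow. Even the low library of day 7 thus lay above the 6 libraries of day 1, though by little.

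MHC class I and its peptide machinery rose too, from a higher base. Of 22 genes 15 rose and none fell (median log2 fold change 2.23), beside 5.59% and 5.84% over all genes. B2m, the light chain of class I, stood at 3169, 2871 and 2282 CPM in sham, 3596, 6958 and 11748 in LT and 2249, 10200 and 9353 in LT_flow (log2 fold change 1.85, adjusted p = 0.0203 by edgeR). Day 1 was near sham, and LT_flow had reached its day 7 level by day 3. Tap1, a subunit of the peptide transporter, Psmb9, an immunoproteasome subunit, and Nlrc5, the coactivator of class I genes, had log2 fold changes of 3.03, 2.53 and 4.59 (adjusted p = 0.00701, 0.0172 and 0.00507). The RT1 class I genes are near copies of each other, so that counts of single members such as RT1-A2 (log2 fold change 2.37) are uncertain.

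Of 36 interferon-stimulated genes 24 rose and none fell (median 1.70), beside 5.59% and 5.84% over all genes. Gbp2, a guanylate-binding protein, stood at 2.87 to 4.74 CPM in sham, 2.58 and 2.70 on day 1, 35.6 and 98.7 on day 3, and 74.2 and 61.5 on day 7 (log2 fold change 4.69, adjusted p = 0.00507 by edgeR). Gbp5, Ifi47 and Zbp1, the last a nucleic acid sensor, had log2 fold changes of 5.21, 3.46 and 3.21. The transcription factor Irf1 rose as well (2.18, adjusted p = 0.0462). Ubd, the ubiquitin-like FAT10, stood at 14.8 and 7.96 CPM on day 1 and 2123 and 967 on day 7 (log2 fold change 7.06). Ido1, which breaks down tryptophan, gave no UMI in sham and stood at 0.0723 and 0.183 CPM on day 1 and 84.2 and 25.2 on day 7 (adjusted p = 0.00542 by edgeR). RGD1305184, which has no name in the files, took the same course, at 0.169 and 0 CPM on day 1 and 63.2 and 50.8 on day 7.

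Among 32 genes of chemokines and NF-kB 7 rose and 1 fell, beside 5.59% and 5.84% over all genes. Cxcl9, a ligand of Cxcr3 on T cells, was at 0.217 and 0.229 CPM on day 1 and at 189 and 193 on day 7 (log2 fold change 9.71, adjusted p = 0.00507 by edgeR), and Cxcl11, another ligand of it, rose by 8.08. Cxcl10 peaked at 1246 CPM in LT_flow day 3 and did not pass between day 7 and day 1 (log2 fold change 3.49, adjusted p = 0.0676). Csf1, the growth factor of macrophages, Cx3cl1, a membrane-bound chemokine, and Tnfaip3, an inhibitor of NF-kB signaling, rose by 1.99, 1.51 and 2.34. Ccl2, a monocyte attractant, fell by 1.67 on the log2 scale, with free RNA estimated at 45.7% to 122% of its UMIs.

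Transcripts of leukocytes moved in the same comparison. Of 15 immune genes tested 6 rose and none fell, beside 5.59% and 5.84% over all genes. The summed level of 16 was 327 and 211 CPM on day 1 and 878 and 772 on day 7. Cd3e, of the T cell receptor complex, stood at 0.241 and 0.412 CPM on day 1 and 11.4 and 4.89 on day 7 (adjusted p = 0.0208 by edgeR), and Nkg7, of cytotoxic granules, at 0.434 and 0.320 against 17.6 and 10.6 (adjusted p = 0.00249). Free RNA was estimated at 88.3% to 147% of the Cd3e UMIs by sample. Cd3e was found in at most 1.95% of the cells of a sample. Igh-6 passed with 62.1% of its UMIs on day 7 estimated as free RNA. Beyond the subtraction of free RNA, the part of immune transcripts in the class II rise was not tested.

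**Figure D3:**
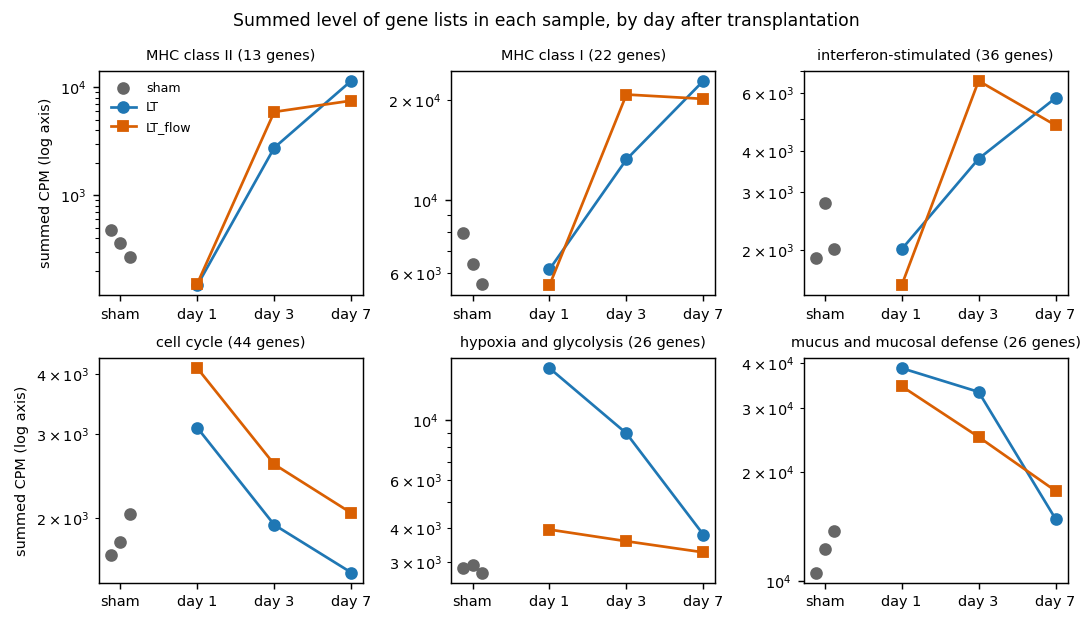
Summed CPM of 6 gene lists in each sample on log axes, scaled by library size alone. Shown are sham (3 points) and LT and LT_flow on days 1, 3 and 7 (1 sample each, joined by lines). MHC class II goes from 148 and 153 CPM on day 1 to 11404 and 7481 on day 7, the cell cycle sum is highest on day 1 in both arms, the mucus sum holds Reg3g and Reg3b, and hypoxia genes are at 15585 CPM in LT day 1 against 3951 in LT_flow day 1.

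Cell cycle transcripts were highest on day 1. Of 43 cell cycle genes 32 fell by day 7 and none rose (median -1.37), beside 5.84% and 5.59% over all genes. Cdk1, the mitotic kinase, stood at 46.0, 25.8 and 35.8 CPM in sham, 98.7, 39.0 and 20.6 in LT and 130, 45.5 and 34.8 in LT_flow, so that day 7 was within the sham range in LT_flow and below it in LT (log2 fold change -2.08, adjusted p = 0.00687 by edgeR). At 2000 UMIs per cell, Cdk1 was found in 3.96% to 6.04% of the cells in sham, 9.37% and 16.9% on day 1, and 2.15% and 4.57% on day 7, against 0.558% to 3.4% of Ptprc-positive cells. On day 7 of LT the share was no higher than in Ptprc-positive cells (2.47%). Free RNA was estimated at 1.18% to 7.38% of the UMIs of the cell cycle list by sample. Birc5, survivin, Cdc20, an activator of the anaphase complex, and Aurkb, Aurora kinase B, fell by 2.25, 2.27 and 1.95 on the log2 scale. Mki67 and Tk1, of proliferating cells, fell by 1.29 each. Outside the list, Cdca3, of the entry into mitosis, and the kinase phosphatase Cdkn3 fell by 2.49 and 2.04, and the aldo-keto reductase Akr1c15 went from 277 and 530 CPM on day 1 to 67.3 and 97.0 on day 7, against 490 to 828 in sham.

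Genes of hypoxia and glycolysis were high in LT day 1 above all. Pgk1, phosphoglycerate kinase, stood at 168, 226 and 228 CPM in sham, 6341, 2169 and 578 in LT and 968, 683 and 429 in LT_flow. All grafts lay above sham, LT day 1 by the most (day 7 minus day 1, log2 fold change -2.31, adjusted p = 0.0298 by edgeR). The glycolytic enzymes Ldha, Pgam1 and Eno1 fell as well (-1.64, -1.29 and -1.26), and they were the remaining calls among 24 genes, none of which rose (median -1.05). Over all genes 5.84% fell. Without sham 2, LT day 1, LT day 7 or LT_flow day 1 none of the 24 passed, and without the block on arms none did.

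Further targets of hypoxia-inducible factors differed most between the arms on day 1, where each arm has 1 sample. Bnip3, a mitophagy receptor, stood at 18.1, 22.1 and 20.8 CPM in sham, 533, 156 and 29.3 in LT and 19.5, 24.2 and 19.0 in LT_flow. Ndrg1 stood at 138 to 163 CPM in sham, 1059, 426 and 158 in LT and 68.5, 137 and 135 in LT_flow. Slc2a1, the glucose transporter GLUT1, and Ero1a, an oxidase of the endoplasmic reticulum, stood at 255 and 425 CPM in LT day 1 and 29.6 and 29.3 in LT_flow day 1. For these 4 genes LT day 1 lay above every other sample, and LT_flow day 1 lay within the sham range, just above it or below it. None passed between the arms or between the days in edgeR. Pgk1 varied between the libraries of LT day 1, from 1745 to 7699 CPM, and from 698 to 1004 in LT_flow day 1.

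Of 24 mucus and mucosal defense genes 2 fell from day 1 to day 7 and 1 rose, a share near the 11.4% over all genes. Reg3g, a secreted C-type lectin, stood at 1662, 3916 and 3989 CPM in sham, 20678, 12909 and 3650 in LT and 20265, 9070 and 6293 in LT_flow (log2 fold change -2.06, adjusted p = 0.0368 by edgeR). Reg3b followed it at 9376 and 7710 CPM on day 1 and 891 and 2168 on day 7 (-2.47, adjusted p = 0.0431), and each passed in 13 of 22 alternatives. Day 1 was thus the highest in both arms, and on day 7 LT was within the sham range for both. Between grafts and sham neither passed (adjusted p = 0.129 and 0.0953). Pigr, which carries IgA into bile, went the other way, from 46.0 and 41.0 CPM on day 1 to 135 and 169 on day 7, against 119 to 211 in sham (1.79, adjusted p = 0.0125).

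Some duct transcription factors were lower on day 1 than on day 7. Of 21 biliary transcription factors 4 rose and none fell (median 0.47), beside 5.59% and 5.84% over all genes. The 4 were Onecut2, Gata6, Grhl2 and Yap1 (log2 fold changes 0.68, 0.68, 0.94 and 1.64). Onecut2 stood at 138 to 143 CPM in sham, 76.0 and 87.2 on day 1 and 123 and 139 on day 7. Sox9 did not pass (0.94, adjusted p = 0.105 by edgeR). With scaling by library size alone the median of all genes moved by 0.22 in this comparison, so that log2 fold changes of this size depend on the scaling.

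Of 15 genes of bicarbonate and fluid secretion, 2 rose, among them the chloride channel Cftr (1.36, adjusted p = 0.00689 by edgeR), and none fell, a share near the 11.4% over all genes. Cftr stood at 21.1 to 25.3 CPM in sham, 26.2 and 20.9 on day 1, 40.5 and 40.7 on day 3, and 59.2 and 61.8 on day 7, above sham from day 3 on in both arms. Of 7 bile acid genes 2 rose and none fell, beside 11.4% called over all genes. These were Slc10a2, the apical bile acid carrier, and Vdr, the vitamin D receptor (1.94 and 1.30, adjusted p = 0.029 and 0.0149). Of 28 genes of epithelial injury and repair 3 passed, a share near the 11.4% over all genes. The integrin Itgb6 rose by 1.12 and the growth factors Ereg and Tgfa fell by 1.40 and 0.95 on the log2 scale. Of 25 genes of the unfolded protein response 6 fell, among them Creld2, Manf and Pdia6 (-1.43, -1.07 and -0.91), and 1 rose. Over all genes 5.84% fell and 5.59% rose. No junction gene of 20 passed in either direction.

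**Figure D4:**
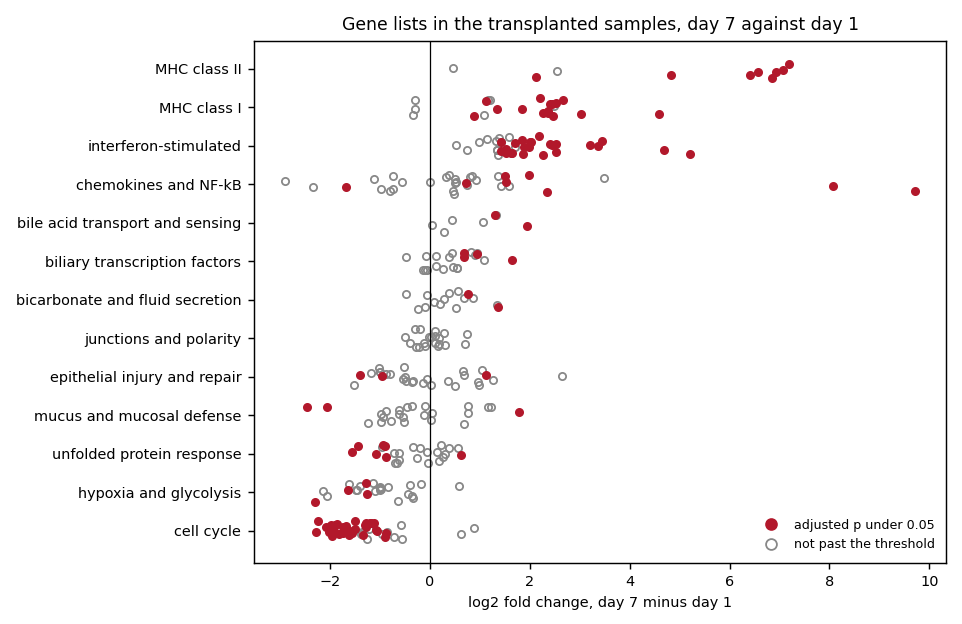
Log2 fold change (day 7 minus day 1) of each tested gene in 13 lists, with filled points for an adjusted p under 0.05 in edgeR's quasi-likelihood test. MHC class II lies furthest to the right with 8 of 10 genes called, and 32 of 43 cell cycle genes are called on the left. Of all genes 11.4% were called in either direction.

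The comparison of LT_flow with LT asked whether raised arterial flow changed the cells, with the day as a block (3 against 3 samples). Of 13345 genes tested none passed in edgeR's quasi-likelihood test (0.0%), 1277 had an unadjusted p under 0.05, and DESeq2 called 139, 19 higher and 120 lower in LT_flow. Of 24 hypoxia and glycolysis genes 2 had a positive log2 fold change (median -1.21), beside a median of 0.04 over all genes. None passed in edgeR, whereas DESeq2 called 12 lower, and without day 7 of either arm edgeR called 2 lower. The median log2 fold change of the 24 was -0.71 without day 1 of either arm and -1.68 without day 7 of either arm. Pgk1 had a log2 fold change of -1.61 ± 0.40 SE (adjusted p = 0.388 by edgeR and 0.0059 by DESeq2), and Cd74 one of 0.02 ± 0.40 SE. Without sham 1 15 genes passed, without LT day 7 5 and without LT_flow day 7 6.

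The cells were also compared with those that passed the same gate with UMIs of both Scgb1c1 and Ttr. These were 418 in all, and 6 samples held at least 20 of them. A further 2741 cells with UMIs of only 1 of the 2 genes lay nearer to the rule and were left out. Since the split was made on 2 genes of the same cells, what follows describes the split. Of 11420 genes fitted with the sample as a block, 2642 (23.1%) passed, 1557 higher in cells without the 2 genes (13.6%) and 1085 lower (9.5%), and at 2000 UMIs per cell 1191 did. Without the block 1064 did. Cells with both genes were deeper, with median UMIs of 7616 to 26850 in these samples. Markers of other cell types moved too: 8 of 11 acinar, 7 of 13 immune and 6 of 9 fibroblast and mural genes were called higher in cells without Scgb1c1 and Ttr, and 6 of 7 hepatocyte genes lower.

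Of 20 mucus and mucosal defense genes 9 were called higher without Scgb1c1 and Ttr and 1 lower, and of 20 junction genes 11 and 2. The shares over all genes were 13.6% and 9.5%. Lypd8, which binds flagella at the gut surface, had means of 3791 CPM against 61.2, and was higher in 6 of 6 samples (log2 fold change 6.22). The transmembrane mucin Muc13 had means of 105 CPM against 3.18, Wfdc21 1615 against 66.9, and the keratin Krt23 40.3 against 4.99, each in 6 of 6 samples. Lower in 6 of 6 samples were Tf, transferrin, with means of 427 CPM against 2423, the water channel Aqp5 with 205 against 1146, Cftr with 31.6 against 82.3, and Ccl20, an attractant of Ccr6-positive cells, with 22.9 against 105. Of 15 genes of bicarbonate and fluid secretion 8 were called lower and 2 higher. The 4 markers outside the gate, Agr2, Tff3, Gkn3 and Mmp7, were not called here, and neither was any of 9 MHC class II genes. An alternative set cells with Scgb1c1 and Ttr together under 0.05% of UMIs against cells with both genes at or above it. Both sets of cells thus changed, and samples with fewer than 20 cells in a set were left out. There all 4 markers were called higher in the low cells (log2 fold changes 1.16, 1.61, 1.11 and 0.19). Among 18 alternatives Cd74 was called in 1 and RT1-Da in 2, each time higher (log2 fold changes -0.11 to 1.58 and 0.14 to 2.18 over all 18).

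**Figure D5:**
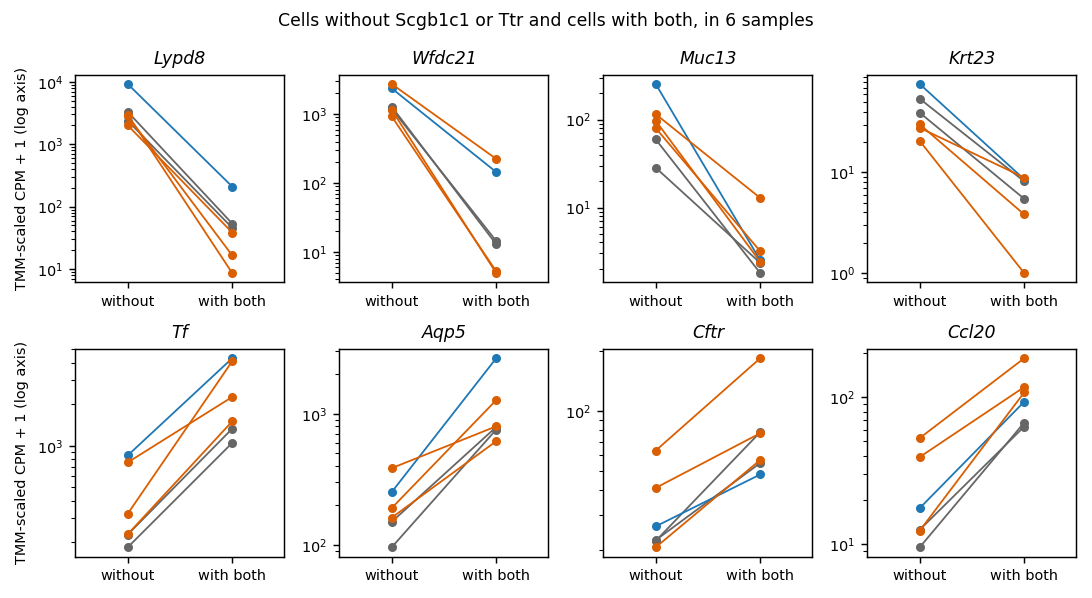
Levels of 8 genes, as TMM-scaled CPM plus 1 on log axes, in cells without Scgb1c1 or Ttr and cells with both, joined within each of 6 samples (gray for sham 2 and 3, blue for LT day 1, orange for LT_flow days 1, 3 and 7). The upper 4 genes are higher without Scgb1c1 and Ttr in all 6 samples and the lower 4 are lower in all 6.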

How the data were processed

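The values used here are UMI counts for each gene and each barcode, as deposited by the authors for 20 libraries, not normalized and with empty barcodes included. Matrix headers name Cell Ranger 4, and the submitters' processing notes name Cell Ranger 5.0.1 and Seurat 3.2.0. The genome build is not given in the sources used here, so no coordinates or sequences are printed. Counts of features with the same symbol were summed (23999 features, 23836 symbols).

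The members, gene lists and tests were chosen with earlier results of these data known. Cells were not clustered, and no doublet caller was run. Leaving out the 7.5% of cells with the most UMIs in each library was an alternative. Counts were summed per sample over the cells and tested with edgeR 4.0.16 (R 4.3.3; TMM, filterByExpr, quasi-likelihood test, Benjamini-Hochberg over all genes tested, threshold 0.05). Gate, mitochondrial and hemoglobin genes were left out of counts of calls. DESeq2 1.42.0 was an alternative. Shares were compared with exact permutation tests over samples. The free RNA of each library was scaled on 16 transcripts specific to non-epithelial cells, with barcodes of at most 100 UMIs as its profile. Thinned values used cells with at least 2000 UMIs.

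Genes were named by rule: the markers, the 10 largest changes per direction among called genes with at least 50 CPM and under 50% free RNA, and up to 4 called members per list (where none was called, the 2 most abundant). Vim and Crem were always named. Other members of the lists that the text names, and Krt23 and Vil1, were chosen after their values were seen. The arms were paired by the day that the labels give. Deviations of same-day samples correlated at r = 0.599, 0.00431 and 0.646 on days 1, 3 and 7 (12973 genes). The edgeR steps were tested on simulated data, with changes set in genes with a mean of at least 10 CPM. Counts were drawn around 1 mean per gene, with the spread usual at its level and no effect of day, arm or sample. Changes of 1 on the log2 scale were recovered for 47% of genes between grafts and sham, 61% between arms and 42% between days. Against cells with Scgb1c1 and Ttr 98% were, and changes of 2 were recovered for 100% throughout. False calls made up 2.65%, 6.94%, 7.19% and 5.26% of the calls in the same order. Results for some genes are not reported here.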

Additional observations from a re-analysis of the deposited data

Results flagged for a closer look

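Among the 6 grafts, 11 values stood apart from the others by Dixon's test at 95%, 10 of them among 95 genes examined, and chance flags about 1 group in 20. The share of the cells among quality-passing cells was 30.0% in LT day 1. Between day 1 and day 7 it moved by -22.5 percentage points in LT and by 2.49 in LT_flow, in opposite directions, a difference that was not tested because each day of an arm is 1 sample.

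LT day 1 was high for Pgk1 (6341 CPM), Bnip3 (533 CPM) and Ndrg1 (1059 CPM), all of the list of hypoxia and glycolysis. LT_flow day 3 was high for Gkn3 (904 CPM), Cxcl10 (1246 CPM) and Gast (5.51 CPM), and LT_flow day 1 for Wfdc18 (8.61 CPM). LT day 3 was high for Ptprz1 (81.9 CPM) and Cpa1 (7.43 CPM), and LT day 7 for Cel, a pancreatic lipase (6.21 CPM).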

How the results depend on the processing

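Between grafts and sham, 827 genes passed with DESeq2 and 106 with a minimum mean of 10 CPM. At 2000 UMIs per cell 45 passed, and with the stricter gate 94. For LT alone against sham 240 passed, and for LT_flow alone 54. Leaving out 1 sample gave 54 to 237. Between the arms, DESeq2 called 139, leaving out the cells with the most UMIs 1, and leaving out 1 sample 0 to 15. Between day 7 and day 1, DESeq2 called 2390, thinned cells 673, the stricter gate 1002 and single libraries as samples 3379, and leaving out 1 sample gave 0 to 3221. Against cells with Scgb1c1 and Ttr, 1191 passed in thinned cells, and leaving out 1 sample gave 1896 to 2595. The difference in the share of the cells between grafts and sham was -1.58 to 3.53 percentage points when 1 sample was left out. Causes were not tested.

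Without the replicate block 0 genes passed between the arms, 1220 between day 7 and day 1, and 1064 against cells with Scgb1c1 and Ttr, where the block is the sample.

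Against cells with Scgb1c1 and Ttr, with both genes allowed up to 0.05% of UMIs, the log2 fold change turned for Mmp7 (0.19), Vim (-0.30), Agr2 (1.16), Gkn3 (1.11) and Asns (0.15). Asns also turned without the cells with the most UMIs (0.077), and Crem in thinned cells (0.011). Of these, Mmp7, Vim, Agr2 and Gkn3 passed the threshold in the turned direction. Between the other groups no named gene that passed in either setting turned. Genes that passed in neither did, such as Crem, at -0.52 to 0.13 between grafts and sham and -0.22 to 1.05 between day 7 and day 1, and Vim, at -0.22 to 0.50 between grafts and sham. Over all named genes and alternatives, a call was lost without a turn in 190 instances between grafts and sham, 285 between day 7 and day 1 and 214 against cells with Scgb1c1 and Ttr. Between the arms no named gene had a call to lose. Depth limits the sham samples most, with 1908571 UMIs in the cells of sham 1.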
